A study of Mus musculus with 10 samples.

Results

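The mitochondrial probe sets of this mouse array are the 9 non-control probe sets whose identifier carries M in its chromosome field, out of 22206 non-control probe sets and 28846 probe sets in all. Their identifiers are TC0M00000004.mm.2, TC0M00000005.mm.2, TC0M00000006.mm.2, TC0M00000007.mm.2, TC0M00000009.mm.2, TC0M00000011.mm.2, TC0M00000013.mm.2, TC0M00000016.mm.2 and TC0M00000027.mm.2. They are called M4, M5, M6, M7, M9, M11, M13, M16 and M27 here, after the number in the identifier, which is not a genome position. RNA labelled as lung RNA of male C57BL/6J mice was hybridized to 10 arrays, 2 for each of 5 groups, after 20 days of treatment. The growth text gives the age as 6 weeks, which is used here, while the treatment text gives the same figure in years. The uninjected group received water and no tumour cells. The other 4 groups were injected with B16F10 cells, a mouse melanoma line from C57BL/6 mice that forms lung tumours, and received water, DTIC (dacarbazine, a melanoma drug that alkylates DNA) at 70 mg/kg/day, or the compound labelled SQ-diEG at 5 or 25 mg/kg/day. The labels count 8 mice per group but not how many of them went into each array. P-values therefore reflect the spread between arrays alone, which may be technical.

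Mitochondria keep a small circular genome of their own, present in many copies per cell. It is transcribed from both strands into long RNAs that are cut into ribosomal RNAs, transfer RNAs and messenger RNAs for core subunits of respiratory complexes I, III, IV and ATP synthase. Nuclear genes supply all other subunits and the proteins that copy, transcribe and process the mitochondrial genome, and mitochondrial transcripts are usually among the most abundant RNAs of a tissue. The mouse RefSeq gene table (GRCm38.p6) holds 37 mitochondrial genes, of which 13 code for protein, 2 for ribosomal RNA and 22 for transfer RNA. The platform annotation used here paired none of these genes with a probe set, and it listed a gene for 0 of the 9 probe sets. The text therefore does not say which transcript or strand each of them measures.

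The values are log2 signals, and their scale had an upper limit that differed little between arrays, from 19.84 to 19.93. The median non-control probe set lay at 7.37 to 7.44 on the 10 arrays, close to the background probe sets (mean 7.17 to 7.29 per array) and to the median of the 5222 negative-control probe sets (7.56 to 7.74). The 95th percentile of the negative controls, the level used here to call a probe set above them, lay at 10.67 to 11.05, and 0.464% to 1.03% of non-control probe sets per array exceeded it. Of 43 measured marker genes for lung cell types, blood cells, pigment cells and heart muscle, 0 exceeded it on any array, so the labelled tissue could not be checked from its defining markers, Sftpc and Sftpb of type II alveolar cells among them. The 4 spiked hybridization controls (bioB, bioC, bioD and cre, added to every sample before hybridization) had a mean of 8.47 to 10.99 per array. The number of arrays limits the precision of every value below.

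The mitochondrial probe sets were among the brightest on the array. All 9 stood among the 35 brightest of the 22206 non-control probe sets by mean over the 10 arrays, and the other 26 of those 35 had no listed gene. Of the 9, 8 lay above that negative-control level on all 10 arrays, against 22 of the 2625 other probe sets without a listed gene (0.838%) and 0 of the 19572 probe sets with one. M9 was the exception: it fell 0.34 short on the array of uninjected replicate 1 and was above on the other 9. The same level was exceeded on all 10 arrays by 41 of the negative controls themselves (0.785%). A mean over 16 was reached by 7 mitochondrial probe sets, by 20 other probe sets without a listed gene, by 26 negative controls and by 0 probe sets with a listed gene. The highest negative control lay at the array's upper limit on 9 of the 10 arrays, so no mitochondrial probe set exceeded all negative controls on every array. Cre, the brightest hybridization control at 10.53 to 13.38, lay below 8 of the 9 mitochondrial probe sets on all 10 arrays and below M9 on 8.

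**Figure D1:**
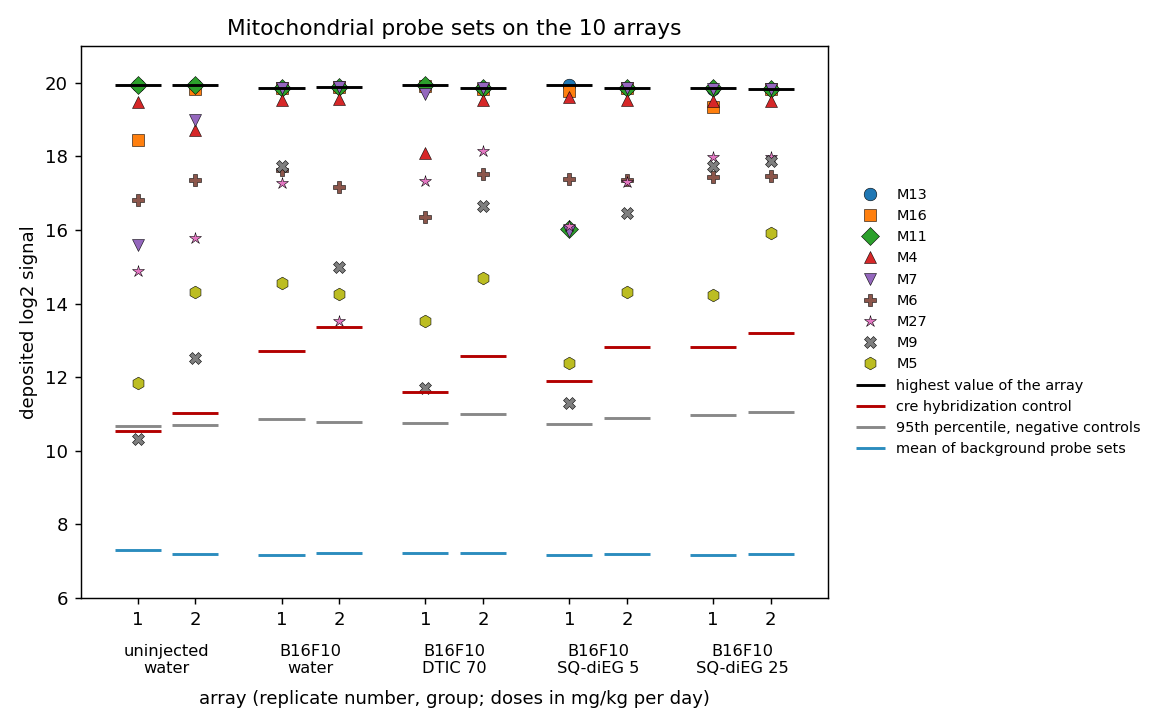
Deposited log2 signal (vertical axis) of the mitochondrial probe sets, 1 symbol each, on the 10 arrays (horizontal axis, by group and replicate number). Short lines mark the highest value of each array, cre, the 95th percentile of its negative controls and the mean of its background probe sets. M13, M16, M11, M4 and M7 crowd below the upper limit, while M9 spreads from 10.32 to 17.88.

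By mean over the 10 arrays the order was M13 (19.88), M16 (19.66), M11 (19.50), M4 (19.30), M7 (18.94), M6 (17.25), M27 (16.63), M9 (14.73) and M5 (14.01). These are signals of different probes and were not set against one another as amounts of RNA. M13, M16, M11 and M7 lay near the upper limit on most arrays, as described next, so no order is read among them or between them and M4. The step from M7 to M6 was present on 8 of 10 arrays, and its size is not given because M7 was near the limit on 6. M27 exceeded M9 on 8 of 10 arrays, by 1.90 ± 2.49 (mean ± SD of the within-array difference, n = 10), less than the spread of that difference. M6 exceeded M27 on 6 arrays and M9 exceeded M5 on 6, so these neighbours could not be separated either. Among all 22206 non-control probe sets of an array, M13 ranked between 6 and 14 on every array, M4 between 12 and 19, M6 between 16 and 27, M27 between 21 and 40 and M5 between 28 and 51. M16 ranked from 1 to 19, M11 from 1 to 23 and M7 from 1 to 24. M9 had the widest span, from 24 to 192.

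M13, M11, M16 and M7 lay at or just under the upper limit on most arrays. M13 was 0.0042 below the highest value of the array on all 10 arrays, so its values, from 19.83 to 19.93, repeat that limit. M11 lay within 0.05 of the limit on 9 arrays, and M7 and M16 on 6 each. M4, M5, M6, M9 and M27 were that close on no array. M11 equalled the highest value on 5 arrays, M7 on 2 and M16 on 1. This was not limited to the mitochondrial probe sets: 7 to 17 non-control probe sets and 1 to 15 negative controls per array lay within 0.05 of the limit, and 4 to 24 probe sets of any kind shared the highest value. Of the 9, 7 showed the same distance below the limit (within 0.0001) on at least 2 arrays. M5, for example, lay 5.62 below it on uninjected replicate 2, injected-water replicate 2 and SQ-diEG 25 mg/kg replicate 1. Of the 20 other bright probe sets with a mean over 16, 18 also repeated a distance, against 109 of all 22197 others (0.491%). A difference between groups in M13, or between arrays where M7, M11 or M16 sat at the limit, is therefore a difference in the limit.

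**Figure D2:**
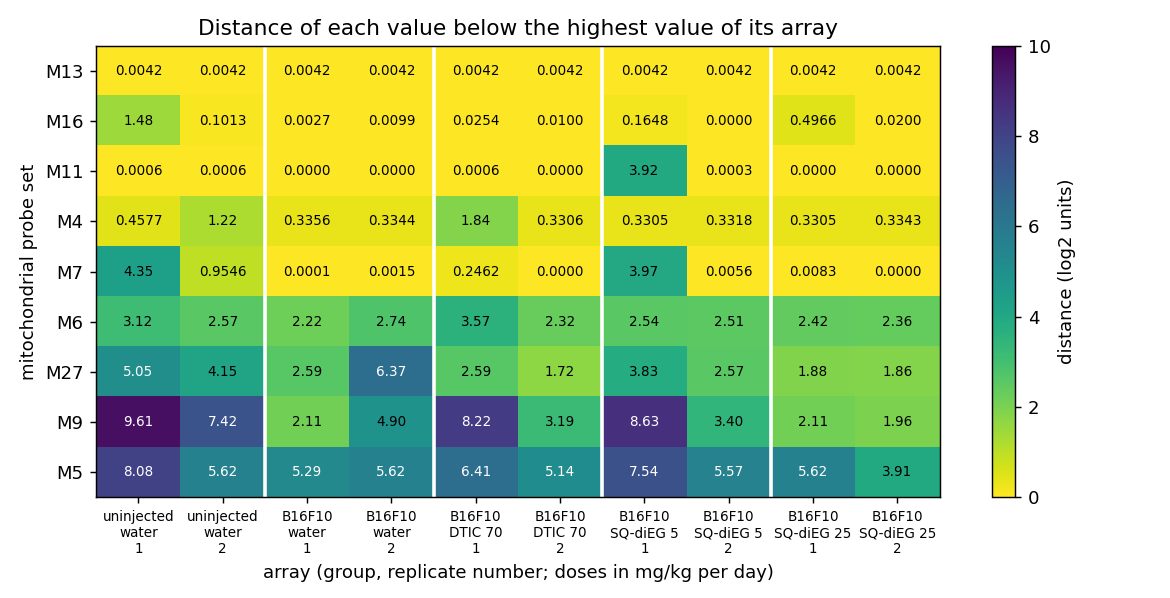
Distance in log2 units of each mitochondrial probe set (rows) below the highest value of the same array (columns, by group and replicate). M13 is 0.0042 below on every array; M7, M11 and M16 sit near 0 on most arrays, with wide gaps for M7 on uninjected replicate 1 and SQ-diEG 5 mg/kg replicate 1 and for M11 on the latter.

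M4 read 19.47 and 18.71 in the uninjected group, 19.52 and 19.56 with injected water, 18.09 and 19.52 with DTIC, 19.60 and 19.54 with SQ-diEG at 5 mg/kg, and 19.52 and 19.50 at 25 mg/kg. All arrays lay between 19.47 and 19.60 except uninjected replicate 2 and DTIC replicate 1, which were low. M16 read 18.45 and 19.83, 19.86 and 19.88, 19.91 and 19.84, 19.77 and 19.87, and 19.35 and 19.82 in the same order of groups. Its low arrays were uninjected replicate 1 and, by less, SQ-diEG 25 mg/kg replicate 1. M6 read 16.81 and 17.36, 17.64 and 17.16, 16.36 and 17.53, 17.39 and 17.36, and 17.43 and 17.48. It stayed below the limit on every array and was lowest on DTIC replicate 1 and uninjected replicate 1.

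M7 and M11 each had arrays several log2 units below the rest. M7 read 15.59 and 18.98 in the uninjected group, 19.86 and 19.89 with injected water, 19.69 and 19.85 with DTIC, 15.96 and 19.86 with SQ-diEG at 5 mg/kg, and 19.84 and 19.84 at 25 mg/kg. Replicates 1 of the uninjected and 5 mg/kg groups were the lowest, uninjected replicate 2 came next, and the other 7 arrays lay between 19.69 and 19.89. M11 read 16.02 on SQ-diEG 5 mg/kg replicate 1 and between 19.84 and 19.93 on the other 9 arrays. The array that was low for M11 was low for M7 too, while M13 (19.93) was near the limit there and M16 read 19.77.

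M9, M27 and M5 had the lowest means and spanned several log2 units. M9 read 10.32 and 12.51 in the uninjected group, 17.74 and 14.99 with injected water, 11.71 and 16.66 with DTIC, 11.30 and 16.47 with SQ-diEG at 5 mg/kg, and 17.73 and 17.88 at 25 mg/kg. Both uninjected arrays lay below both injected-water arrays and below both 25 mg/kg arrays, whereas the DTIC and 5 mg/kg groups each held 1 low and 1 high array. M27 read 14.88 and 15.78, 17.27 and 13.52, 17.34 and 18.13, 16.10 and 17.30, and 17.97 and 17.98 in that order of groups. Its lowest array was injected-water replicate 2, and the DTIC and 25 mg/kg arrays all lay above both injected-water arrays. M5 read 11.86 and 14.31, 14.57 and 14.27, 13.53 and 14.71, 12.40 and 14.31, and 14.23 and 15.93. Replicates 1 of the uninjected and 5 mg/kg groups were again the lowest, and the groups overlapped in every comparison.

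The spread between arrays of a group differed widely among the 9. The within-group SD was 0.03 for M13, 0.44 for M6, 0.46 for M16, 0.51 for M4, 1.19 for M5, 1.22 for M11, 1.30 for M27, 1.64 for M7 and 2.52 for M9, each pooled over 5 groups of 2 arrays. The median was 0.91 over all non-control probe sets and 1.37 over the negative controls. M9 stood at percentile 99.99 of all non-control probe sets and M7 at 98.0, whereas M6 (4.31) had a small SD. The small SDs of M4 (8.50), M16 (5.43) and M13 (0.0135) cannot be read as steadiness. M16 was near the upper limit on 6 arrays and M13 on all 10. On 5 arrays M4 lay at a distance below the limit that recurred on another array. Across the 9 probe sets any pair of arrays correlated at 0.65 to 0.99, against 0.232 to 0.412 across all non-control probe sets, as a description over probe sets, which are not independent replicates. The 9 range in mean from 14.01 to 19.88, while most non-control probe sets lie near background. The contrast is therefore no measure of reproducibility. The mean of the 9 ranged from 16.36 on uninjected replicate 1 and 16.50 on SQ-diEG 5 mg/kg replicate 1 to 18.68 on SQ-diEG 25 mg/kg replicate 2.

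Injected-water against uninjected arrays, the comparison of the tumour model with its control, gave the largest mitochondrial difference. M9 averaged 16.37 ± 1.95 (SD, n = 2) with injected water and 11.42 ± 1.55 (n = 2) without injection, a difference of 4.95 (SE 1.26; 95% interval 2.42 to 7.49), or 2.89 with quantile normalization. It did not pass the test (limma, unadjusted p = 0.000298, adjusted p = 0.358 over 21656 probe sets, 0.125 to 0.999 over the alternatives). The SE draws on a spread shared by all probe sets (prior SD 0.97), below the 2.52 of M9 itself. With the shared spread taken from the 156 probe sets averaging above 10, a choice made after seeing the data, the SE was 2.21. M7 averaged 17.28 ± 2.40 without injection and 19.87 ± 0.02 with injected water, a difference of 2.59 (SE 1.07, limma adjusted p = 0.73), or 0.96 with quantile normalization. Without uninjected replicate 1, the M7 difference was 0.90, and the injected-water arrays were at the limit, where no higher value can be read. Of the 9, 0 passed in this comparison, against 7 of 21656 probe sets (0.0323%). At an unadjusted p under 0.05 there were 2 of 9, M7 and M9, against 1314 of 21656 (6.07%). Both injected-water arrays exceeded both uninjected arrays for M4, M7, M9 and M16 and lay below them for M11 and M13; over all probe sets tested, 19.3% and 15.6% did so. The median difference of the 9 was 0.45, against 0.08 over all probe sets tested, most of which lie near background. Over the 156 probe sets averaging above 10, which include the 9, it was 2.31, so the 9 did not exceed other bright probe sets. The median of the 9 was -0.20 with quantile normalization and 0.039 without uninjected replicate 1. In whole-tissue RNA, fewer cells of a type and less RNA per cell cannot be told apart.

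DTIC, the drug control, was compared with injected water. M27 averaged 17.74 ± 0.56 (SD, n = 2) with DTIC and 15.39 ± 2.65 (n = 2) with water, a difference of 2.34 (SE 1.01, limma adjusted p = 0.991) that was 0.47 without injected-water replicate 2. M9 averaged 14.18 ± 3.50 with DTIC, a difference of -2.18 (SE 1.26, limma adjusted p = 0.997), and the sign turned to 0.29 without DTIC replicate 1. By limma 0 of the 9 passed, as did 0 of 21656 probe sets (0.0%), with 1 of 9, M27, and 1051 of 21656 (4.85%) at an unadjusted p under 0.05. Both DTIC arrays lay above both injected-water arrays for M27 (15.9% of all probe sets) and below them for M4 and M7 (16.3%). For M4, DTIC replicate 1 (18.09) was low. DTIC replicate 2 (19.5198) lay just under injected-water replicate 1 (19.5226), in the order of their upper limits (19.8504 and 19.8582). For M7, DTIC replicate 2 (19.85) and the injected-water arrays (19.86 and 19.89) were near the limit, while DTIC replicate 1 (19.69) was not within 0.05 of it.

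SQ-diEG at 5 mg/kg was compared with injected water in the same way. The 3 differences over 1.5 in size were -2.48 for M9 (SE 1.26), -1.96 for M7 (SE 1.07) and -1.93 for M11 (SE 1.00), each with a limma adjusted p of 0.926. All of them rested on replicate 1 of the 5 mg/kg group: without it the M9 difference was 0.10, that of M7 -0.0094 and that of M11 -0.0049. In that array M9, M7 and M11 read 11.30, 15.96 and 16.02, and in its partner 16.47, 19.86 and 19.87. For 0 of the 9 did both 5 mg/kg arrays lie above, or both below, the injected-water arrays, where 15.3% and 18.4% of all probe sets did. By limma 0 of the 9 and 0 of 21656 (0.0%) passed, with 0 of 9 and 1166 (5.38%) at an unadjusted p under 0.05.

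With SQ-diEG at 25 mg/kg, the arrays of M9 and M27 lay closer together than in any other group. M9 averaged 17.81 ± 0.10 (SD, n = 2) and M27 17.98 ± 0.01, while M5 averaged 15.08 ± 1.20. M7 read 19.84 on both arrays, at or near the upper limit, so its spread there is not known. Against injected water, M27 differed by 2.58 (SE 1.01, limma adjusted p = 0.931), and by 0.71 without injected-water replicate 2. M9 averaged 16.37 with injected water, within its own spread of the 25 mg/kg level. Both 25 mg/kg arrays lay above both injected-water arrays for M27 (16.8% of all probe sets) and below them for M4, M7, M11, M13 and M16 (16.9%). For M4, M7, M11 and M13 this order was that of the upper limits, which were lower on the 25 mg/kg arrays. By limma 0 of the 9 and 0 of 21656 (0.0%) passed, with 1 of 9, M27, and 1151 (5.31%) at an unadjusted p under 0.05.

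The 2 doses of SQ-diEG were compared directly after the same 20 days. M9 averaged 17.81 at 25 mg/kg and 13.89 ± 3.65 (SD, n = 2) at 5 mg/kg, a difference of 3.92 (SE 1.26, limma unadjusted p = 0.00324, adjusted p = 0.654). It was 1.34 without replicate 1 of the 5 mg/kg group. M7 differed by 1.93 (SE 1.07), M11 by 1.90 (SE 1.00) and M5 by 1.73 (SE 1.00), with limma adjusted p of 0.888, 0.888 and 0.893. The M5 difference was 0.77 without that array, 0.88 without replicate 2 of the 25 mg/kg group and -0.83 with quantile normalization. Without replicate 1 of the 5 mg/kg group the M7 difference was -0.026 and the M11 difference -0.027. The median difference of the 9 was 1.27, against 0.04 over all probe sets tested, most of which lie near background. Over the 156 probe sets averaging above 10, which include the 9 and were chosen after seeing the data, it was 1.91. The median of the 9 was -0.026 without replicate 1 of the 5 mg/kg group and -0.15 with quantile normalization. By limma 0 of the 9 and 0 of 21656 (0.0%) passed, with 1 of 9, M9, and 1208 (5.58%) at an unadjusted p under 0.05. M6, M9 and M27 were higher in both 25 mg/kg arrays than in both 5 mg/kg arrays (18.4% of all probe sets), and M4 and M13 were lower (15.6%). For M4 and M13 this order was that of the upper limits. These comparisons share the injected-water or the 5 mg/kg arrays with the earlier ones and do not repeat them independently.

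**Figure D3:**
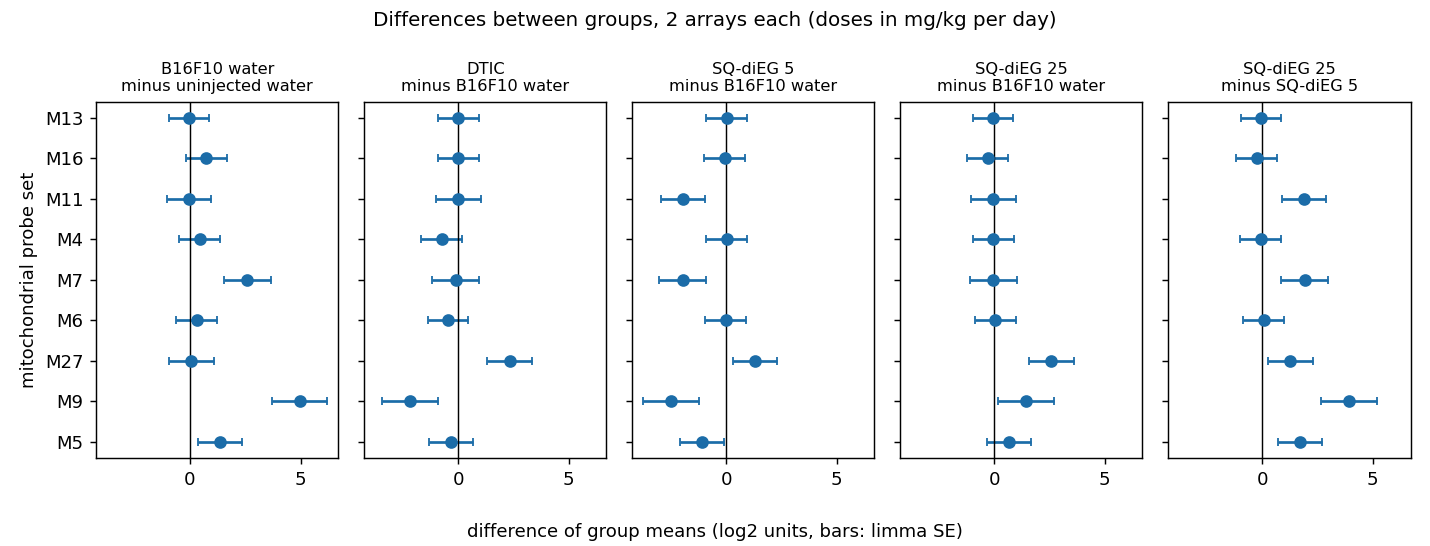
Log2 difference of each mitochondrial probe set in the 5 comparisons of 2 groups (panels), with bars of 1 limma SE and a line at 0. The M9 differences of 4.95 between injected-water and uninjected arrays and of 3.92 between the SQ-diEG doses lie farthest from 0, and none of the differences shown passed the adjusted threshold of 0.05.

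Across all 5 groups, limma's F test gave M9 an unadjusted p of 9.85e-05 and an adjusted p of 0.0954 (0.0111 to 0.997 over the alternatives), so it did not pass. Leaving out DTIC replicate 1, DTIC replicate 2 or SQ-diEG 5 mg/kg replicate 2 gave adjusted p of 0.0162, 0.0111 and 0.0156, and leaving out uninjected replicate 1 gave 0.982. The F test draws on the same shared spread as the SE of M9 above. That spread was also taken from the 156 probe sets averaging above 10, a choice made after seeing the data. Limma's F test then gave M9 an unadjusted p of 0.146. With the mean of the hybridization controls as a covariate, also chosen after seeing the data, it was 0.668. With the spread shared by all probe sets and no covariate, M27 followed M9 with an unadjusted p of 0.0271 (adjusted 0.803) and M7 with 0.0432 (adjusted 0.879). Of the 9, 0 passed, against 17 of 21656 probe sets (0.0785%), and 3 of 9 had an unadjusted p under 0.05, against 1203 of 21656 (5.56%).

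The spiked hybridization controls moved with part of the mitochondrial spread. In every group their mean was higher on replicate 2 than on replicate 1. It was 8.47 and 8.68 on the uninjected arrays, 9.10 on SQ-diEG 5 mg/kg replicate 1 and 9.22 on DTIC replicate 1. On the other 6 it was 10.15 or more, with a widest gap of 0.93 between these sets. The next widest gap, 0.64, lay among the 6. M9 was lower on those 4 arrays (10.32 to 12.51) than on any of the other 6 (14.99 to 17.88), and so was M7 (15.59 to 19.69 against 19.84 to 19.89). M13, and with it the upper limit, was higher on the 4. Of all 22206 non-control probe sets, 219 (0.986%) were lower on all 4 than on any of the other 6. Since the arrays fall into separate sets, no correlation with these controls over all 10 is read here. Within the 6 arrays with the higher controls, the Pearson correlations of the 9 with the controls ran from -0.60 to 0.48, and 0 of 9 passed after adjustment over the 9 (permutation tests). When the mean of these controls entered the model as a covariate, a choice made after seeing the data, the M9 difference between injected-water and uninjected arrays was -1.03 and that of M7 was -0.65. Both uninjected arrays had low controls and both injected-water arrays had high ones, so group and hybridization level cannot be told apart in that comparison. In the DTIC and the 5 mg/kg groups, the array with the low controls was also the low array for M9, and the part of the controls in that difference was not tested. The hybridization controls were not the only array measure that moved with the 9. Against the mean of the negative controls over all 10 arrays, 0 of 9 passed by Pearson's r and 5 by Spearman's rho (permutation tests). The rho was 0.75 for M5, 0.85 for M6, 0.84 for M9, 0.77 for M27 and -0.79 for M13. What lies behind this was not tested.

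**Figure D4:**
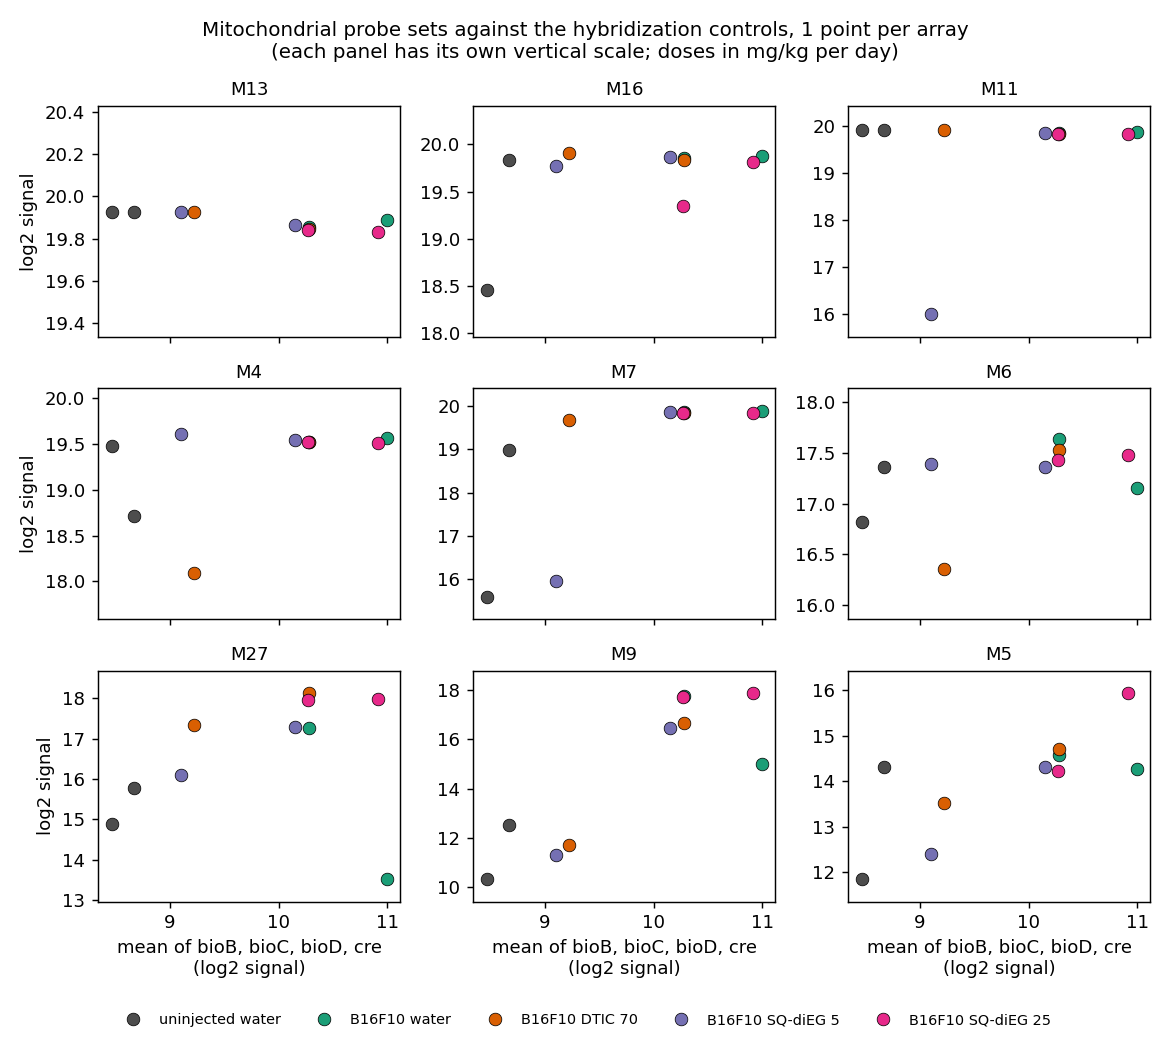
Log2 signal of each mitochondrial probe set (panels, vertical axis) against the mean log2 signal of bioB, bioC, bioD and cre on the same array (horizontal axis), coloured by group. M9 and M7 are lower on the 4 arrays with control means of 8.47 to 9.22 than on the other 6, and M13 follows the upper limit.

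Among the 9 themselves, M5, M7 and M9 were low on both uninjected replicate 1 and SQ-diEG 5 mg/kg replicate 1. Others were low on 1 of these arrays. On uninjected replicate 1, M16 was at its lowest (18.45), M6 (16.81) was above only DTIC replicate 1, and M27 (14.88) above only injected-water replicate 2. M11 was at its lowest (16.02) on SQ-diEG 5 mg/kg replicate 1. M4 and M13 were low on neither. Within the 6 arrays with the higher controls 6 of the 36 pairs of probe sets passed a permutation test of Pearson's r adjusted over the 36, and all of them lay among M4, M7, M11 and M13, which moved there with the upper limit.

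Lists of nuclear genes that work with the mitochondrial genome are given by their counts. Over all probe sets tested, 0.0323% passed in the injected-water comparison, 0.0785% in the F test and 0.0% in the other 4 comparisons, so a count of 0 in lists of this size is at the background and is no result about these genes. Among the genes named from the lists, only Cox7c (2 arrays) and Mterf1a (1 array) lay above the negative-control level on any array, and the differences of the others are between signals not above the negative controls. Of the 37 listed nuclear subunits of complex I, the entry point for electrons from NADH, 35 were tested and 0 passed (limma) in any of the 5 comparisons or the F test. Their median difference between injected-water and uninjected arrays was 0.39, against 0.05 over all genes, with 22 higher and 13 lower. Ndufa5 had a difference of 2.26 (SE 1.06, limma adjusted p = 0.801), Ndufs7 one of -1.93 (SE 0.97) and Ndufb2 one of -1.99 (SE 1.00), both at an adjusted p of 0.814. Ndufv3, the third gene by the F test, had an adjusted p of 0.922 there. No complex I gene lay above the negative-control level on any array.

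Of 39 listed subunits of complexes II to V with cytochrome c, 38 were tested, and 0 passed (limma) in any comparison. Their median difference between injected-water and uninjected arrays was 0.30, with 20 higher and 18 lower. Cox6a1, a subunit of cytochrome c oxidase, had a difference of -2.86 (SE 0.98, limma adjusted p = 0.628). Uqcr10 of complex III had one of -2.47 (SE 0.96, adjusted p = 0.714), and Cox7c of cytochrome c oxidase one of 2.08 (SE 0.98, adjusted p = 0.802). Atp5o of ATP synthase, named through the F test, had an adjusted p of 0.792 there. Of these genes 4 exceeded the negative-control level on at least 1 array and 0 on all 10.

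Of 27 listed genes for copying and transcribing mitochondrial DNA, 26 were tested and 0 passed (limma) in any comparison. On any array 1 of them lay above the negative-control level, and none of Ppargc1a, Top1mt and Dguok did. The list had 11 higher and 15 lower in injected-water arrays and a median difference of -0.16. Ppargc1a, a coactivator that raises mitochondrial gene programmes, had a difference of 1.93 (SE 0.94, adjusted p = 0.813). Top1mt, the mitochondrial topoisomerase, had one of -1.59 (SE 0.97, adjusted p = 0.87), and Dguok, which makes precursors of mitochondrial DNA, one of -1.39 (SE 1.07, adjusted p = 0.912). By the F test the leading genes were Mterf1a, a transcription termination factor, the primase-polymerase Primpol and the transcription factor Nrf1, with limma adjusted p of 0.588, 0.834 and 0.914.

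Of 31 listed genes for processing, decay and translation of mitochondrial RNA, 28 were tested and 0 passed (limma), with 18 higher and 10 lower in injected-water arrays and a median of 0.13. Ptcd2, a pentatricopeptide-repeat protein of mitochondria, had a difference of 3.19 (SE 0.95, limma adjusted p = 0.566), on signals between 5.23 and 9.43. Hsd17b10, a subunit of mitochondrial RNase P, had one of -1.60 (SE 0.98, adjusted p = 0.872), and Mtpap, the mitochondrial poly(A) polymerase, one of -1.37 (SE 0.92, adjusted p = 0.887). By the F test Ptcd2 and Prorp, the nuclease subunit of RNase P, each had a limma adjusted p of 0.803, and Mtif3, a translation initiation factor, one of 0.924. No probe set with a listed gene exceeded the negative-control level on all 10 arrays, so none was named for a pattern like that of the mitochondrial probe sets.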

How the data were processed

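The 10 samples are Affymetrix arrays of mouse RNA. The authors deposited log2 values per probe set; the submitters' processing notes name Affymetrix Expression Console, RMA and Transcriptome Analysis Console. The protocols describe a 3' labelling kit, while the identifiers have the form of a whole-transcript array. A genome build is not given in the sources used here. Per the labels, 2 amounts of RNA were given, 9.4 µg (labelling protocol) and 250 ng (design text).

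From these values, limma 3.58.1 in R 4.3.3 fitted group means over all 10 arrays (5 residual degrees of freedom), with eBayes, for the 21656 non-control probe sets that reached the 40th percentile of their array on at least 2 arrays. P-values were Benjamini-Hochberg adjusted over all of them, with a threshold of 0.05. The script was tested on simulated data. Correlations over all 10 arrays used 100000 permutations, and those within 6 arrays used every ordering of the 6, both two-sided. Named were all 9 mitochondrial probe sets and, per gene list, the 3 genes with the smallest p in the injected-water comparison and in the F test. For genes with several probe sets the brightest was used. Alternatives covered normalization, centring, filters, eBayes settings, a replicate block, detection levels and leaving out each array. The members and gene lists were chosen with earlier results of these data known. Of 10 correlations of same-numbered deviations between groups, 0 exceeded 0.1, so no pairing by replicate number was used in the main fit. The mean of the hybridization controls was nevertheless higher on replicate 2 than on replicate 1 in every group. The part of replicate number in this was not tested.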

Additional observations from a re-analysis of the deposited data

How the results depend on the processing

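Of the 6 tests of the 9 probe sets, the 5 comparisons of 2 groups gave 0 calls under every alternative run. The F test over 5 groups gave 1 call, M9, with a 60th percentile filter (adjusted p = 0.0163) and 1, M9, with the replicate number as a block (adjusted p = 0.0441), and 0 to 1 when single arrays were left out. Over all probe sets, quantile normalization gave 0 calls in the injected-water comparison and 0 in the F test, against 7 and 17. The count above the negative controls on all 10 arrays was 0 against the highest negative control, 6 against their 99th percentile, and 8 to 9 when single arrays were left out. Over all 10 arrays, which form separate sets, 4 of 9 probe sets passed the test of Pearson's r with the hybridization controls (3 positive and M13 negative) and 0 that of Spearman's rho. Within the 6 arrays with higher controls, a set chosen after seeing the data, 0 passed. Of the 36 pairs, 6 passed by r over all 10 arrays (3 positive and 3 negative) and 1 by rho. After removal of group means 0 of 9 and 0 of 36 passed, which says nothing, because the smallest p that 5 groups of 2 allow is 0.0625 in this exact permutation test.

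The sign of the M5 difference between SQ-diEG doses turned to -0.83 with quantile normalization. With the hybridization controls as a covariate, chosen after seeing the data, the injected-water difference was -0.65 for M7 and -1.03 for M9, and that of M9 was 0.38 with DTIC and 0.44 with SQ-diEG at 5 mg/kg. When single arrays were left out, the M9 difference ran from -5.07 to 0.10 with SQ-diEG at 5 mg/kg and from -4.66 to 0.29 with DTIC, and the difference between doses ran from -0.026 to 3.88 for M7 and from -0.027 to 3.83 for M11. Of 45 differences, 16 changed sign with quantile normalization, 4 with centring on the negative controls, 1 with median centring and 18 with the hybridization covariate. The causes were not tested.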
